A study of Mus musculus with 2 samples.

Results

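The genes described here were 10 muscle isoform genes, *Acta1*, *Actc1*, *Ckm*, *Ckb*, *Tnnc2*, *Tnnt2*, *Tnnt3*, *Mb*, *Myl1* and *Mylpf*, taken by symbol from the mRNA-seq table of muscle wall peeled from the mouse jejunum, the middle of the small intestine. All 10 were among the 18159 genes listed, and all 10 were above 0 FPKM in both libraries. FPKM is a fragment count divided by the transcript length and by the total of mapped fragments, so levels of different genes in 1 library can be set side by side. There was 1 *Dnmt1*-WT and 1 *Dnmt1*-KO library, both from mice of 15 days on a C57BL/6 background. The labels give both samples the same strain, a Myh11-cre,-EGFP transgenic with Dnmt1lox/lox alleles, and the title and genotype tag alone separate them, since a free-text description naming Dnmt1-/- stands on both samples. Cre and EGFP are driven by the *Myh11* promoter, which is active in smooth muscle cells, so the other cells of the wall should keep *Dnmt1*, and the study describes the *Dnmt1*-WT mice as carrying the same Cre-eGFP transgene. RNA came from mice of both sexes, and how it was combined into a library is not stated in the sources used here. With 1 library per genotype there is no replicate check on any difference below, no p-value is given, and "higher" or "lower" describes these 2 libraries.

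Muscle contracts when myosin pulls on actin filaments, and most parts of this machinery exist as isoforms encoded by separate genes. Skeletal and heart muscle, the striated muscles, use their own alpha-actins and myosin light chains, and they switch contraction on through troponin, a complex of a calcium-binding subunit (C), an inhibitory subunit (I) and a subunit that anchors the complex to tropomyosin (T). Smooth muscle uses other actins and light chains and is controlled through phosphorylation of its regulatory light chain and not through troponin. Creatine kinases and myoglobin serve the energy and oxygen supply of muscle. *Ckb* is an exception among the 10 genes, since it encodes the brain-type creatine kinase that smooth muscle also uses and is no striated isoform.

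Promoters of muscle genes often hold the CArG box, which binds serum response factor, the M-CAT element (CATTCC), which binds TEAD factors, and the MEF2 box, which binds MEF2 factors. Windows from 250 bases before to 50 after the start site (RefSeq, GRCm38.p6) were matched for 9 of the 10 genes, all but *Tnnt3*, and were searched on both strands. A CArG, MEF2 or M-CAT match was found in 5 of these genes, and 4 are shown to let the muscle elements be read in place, namely both actins, the brain-type creatine kinase and cardiac troponin T, while that of *Myl1* is not shown. Capitals mark matches to the CArG box, the MEF2 box, M-CAT and the TATA box (TATAAA) on either strand.
Acta1 (chr8:123894726-123895025, minus strand): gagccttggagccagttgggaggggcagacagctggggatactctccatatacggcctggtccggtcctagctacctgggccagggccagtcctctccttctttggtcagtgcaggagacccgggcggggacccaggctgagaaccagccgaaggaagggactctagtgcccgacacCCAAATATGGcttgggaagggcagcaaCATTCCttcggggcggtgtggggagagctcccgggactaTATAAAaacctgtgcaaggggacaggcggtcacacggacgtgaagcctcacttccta
Actc1 (chr2:114052826-114053125, minus strand): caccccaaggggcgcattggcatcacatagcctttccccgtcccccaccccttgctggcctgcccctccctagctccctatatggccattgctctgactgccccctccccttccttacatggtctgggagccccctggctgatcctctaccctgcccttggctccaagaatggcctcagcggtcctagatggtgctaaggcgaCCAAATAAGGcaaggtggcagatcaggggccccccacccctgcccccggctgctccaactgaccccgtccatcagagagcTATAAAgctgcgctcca
Ckb (chr12:111672289-111672588, minus strand): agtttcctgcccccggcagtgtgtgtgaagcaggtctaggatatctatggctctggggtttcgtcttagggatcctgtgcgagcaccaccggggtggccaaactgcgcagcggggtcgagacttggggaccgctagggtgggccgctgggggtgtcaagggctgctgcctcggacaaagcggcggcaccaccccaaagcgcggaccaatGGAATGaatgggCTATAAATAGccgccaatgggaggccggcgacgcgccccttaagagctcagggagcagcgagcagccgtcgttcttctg
Tnnt2 (chr1:135836084-135836383, plus strand): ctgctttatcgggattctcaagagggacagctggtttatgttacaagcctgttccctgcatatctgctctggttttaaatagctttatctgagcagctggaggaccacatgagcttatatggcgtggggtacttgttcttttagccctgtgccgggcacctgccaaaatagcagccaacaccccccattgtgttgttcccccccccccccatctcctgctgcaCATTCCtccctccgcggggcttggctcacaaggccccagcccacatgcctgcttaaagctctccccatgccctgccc

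The window of *Acta1* held 1 CArG box from base -73 to base -64, counted from the annotated start site, and that of *Actc1* held 1 from base -47 to base -38. TATAAA lay from base -7 to base -2 in *Acta1*, and after the annotated start, from base 34 to base 39, in *Actc1*. Where transcription starts in this tissue was not tested, so these positions hold for the annotated start only. CArG boxes were found in 1.63% of all 32851 windows. None of the other members' windows held one, and that says only that these letters are not in these windows. M-CAT was found in *Acta1*, *Ckb*, *Tnnt2* and *Myl1*, against 14.7% of all windows. The MEF2 box of *Ckb*, from base -29 to base -20, overlaps its TATA box, and MEF2 boxes were found in 3.19% of all windows. TATAAA was found in the windows of *Acta1*, *Actc1*, *Ckb* and *Myl1* and in 13.6% of all windows, and the E-box (CANNTG), bound by the MyoD family, in 72.3% of all windows and in every window of the members except that of *Ckb*. CpG sites, which the DNMT1 enzyme methylates, numbered 12 in the window of *Acta1*, 7 in *Actc1*, 7 in *Ckm*, 22 in *Ckb*, 5 in *Tnnc2*, 2 in *Mylpf*, 7 in *Myl1*, 5 and 1 in the 2 windows of *Tnnt2* and 9, 1 and 2 in the 3 windows of *Mb*, with a median of 7 over all windows. Matches are descriptions of sequence, and binding and methylation were not analysed here.

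The *Dnmt1*-WT library had 16632 genes above 0 FPKM and the *Dnmt1*-KO library 17055. *Dnmt1* itself was listed at 11.6 FPKM in *Dnmt1*-WT and 7.58 FPKM in *Dnmt1*-KO. The defining genes of smooth muscle were high in both libraries, among them *Acta2* and *Myl9*, and all 16 genes of a smooth muscle contractile list were lower in *Dnmt1*-KO, with a median log2 ratio of -0.73. In these bulk libraries, fewer cells of a type and less RNA per cell cannot be told apart. From other experiments at the same age, the study reports fewer eGFP-positive smooth muscle cells in *Dnmt1*-KO. It also reports lower *Myh11* and *Srf* in such cells after sorting.

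The 10 genes did not move as a block. The level in *Dnmt1*-KO divided by that in *Dnmt1*-WT, called the ratio here, was above 1 for 8 genes and below 1 for both creatine kinases, while 50.3% of all genes were above 1 and 49.1% below. The ratio was 2 or more for 5 genes (*Acta1*, *Tnnc2*, *Tnnt3*, *Mb* and *Mylpf*), where 11.8% of the 16102 genes above 0 FPKM in both libraries reached it, and 0.5 or less for 1 gene, *Ckm*, where 4.98% of all genes did. At a fold of 3 these counts were 3 (*Tnnc2*, *Tnnt3* and *Mb*) and 0, with 6.46% and 1.76% of all genes, and at a fold of 1.5 they were 5 and 2 (both creatine kinases), with 19.7% and 12.7%. Without *Tnnc2* and *Mb*, whose exons overlap those of other genes, 3 genes at least doubled. When each library had to reach 1 FPKM, 2 genes at least doubled, with 5.53% of all genes. With a pseudocount of 1 FPKM 3 did, with 4.87%. The median log2 ratio of the 10 was 0.80, against 0.01 for all genes. The 5 that at least doubled were all under 6 FPKM in *Dnmt1*-WT, while *Acta1*, *Tnnc2* and *Tnnt3* lay above the median of expressed genes, 6.17 FPKM, in *Dnmt1*-KO. At a geometric mean of both libraries between 1 and 10 FPKM, 4 of 5 members at least doubled, and 10.8% of all genes of that level did so, while 4.08% were at most halved and no member was. Of the 4 members above that level none at least doubled, as 3.55% of genes between 10 and 100 FPKM and 4.17% at 100 FPKM or more did, and 2.93% of the latter were at most halved. *Mb*, the only one under 1 FPKM, lay at a level where the ratio was 2 or more for 32.5% of genes and 0.5 or less for 12.9%. The levels spanned a wide range, from 0.06 FPKM for *Mb* to 818 FPKM for *Ckb* in *Dnmt1*-WT, and the order was led in both libraries by *Ckb*, *Tnnt2* and *Ckm*.

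**Figure D1:**
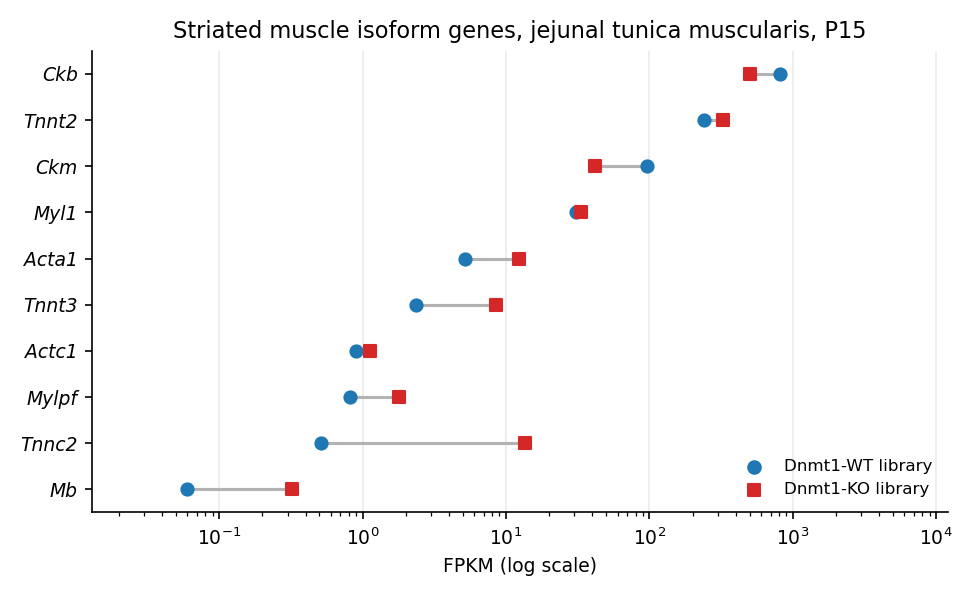
FPKM of each of the 10 genes on a log axis, with circles for the *Dnmt1*-WT library and squares for the *Dnmt1*-KO library, joined by a line and ordered by the *Dnmt1*-WT level. *Ckb* and *Ckm* are the only genes whose square lies to the left of the circle, and *Tnnc2* has the longest line, from 0.51 to 13.5 FPKM.

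**Figure D2:**
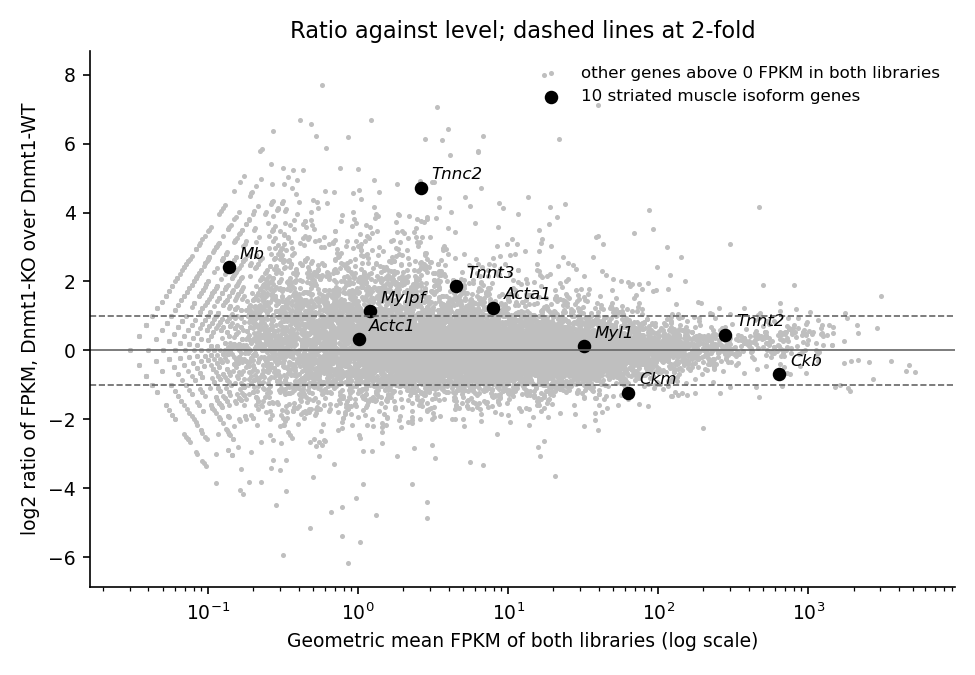
Log2 ratio (*Dnmt1*-KO over *Dnmt1*-WT) against the geometric mean FPKM for 16102 genes (grey) and the 10 members (black), with dashed lines at a change of 2-fold. Ratios spread widely at low levels, where *Mb* lies, while *Ckm* lies below the lower dashed line at a level where few genes do.

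Both striated alpha-actins were the lowest of the 6 conventional actins. *Acta1*, the skeletal alpha-actin (chromosome 8 of GRCm38, 123891769 to 123894751, minus strand), was listed at 5.17 FPKM in *Dnmt1*-WT and 12.2 FPKM in *Dnmt1*-KO, a ratio of 2.36. *Actc1*, the cardiac alpha-actin (chromosome 2, 114047282 to 114053548, minus strand), was listed at 0.90 and 1.13 FPKM, a ratio of 1.26. The skeletal gene was thus the more abundant of the pair in both libraries, and the cardiac gene had the ratio nearer to 1. *Acta2*, the alpha-actin of smooth muscle, was at 5408 FPKM in *Dnmt1*-WT and 4016 FPKM in *Dnmt1*-KO, and *Actg2*, the gamma-actin of gut smooth muscle, at 3974 and 3223 FPKM. *Acta1* amounted to 0.0956% of the level of *Acta2* in *Dnmt1*-WT and 0.304% in *Dnmt1*-KO. *Acta1* therefore gained on its smooth muscle counterpart while remaining a trace of the actin mRNA, 0.115% of the sum of all 6 conventional actins in *Dnmt1*-KO. The actin genes are close relatives, so shared stretches were counted. Of the 1534 different 50-base stretches of the *Acta1* transcripts, 31 occur in transcripts of other genes, mainly in *Actb* and actin pseudogenes, and of the 1568 of *Actc1* none does. Reads with mismatches were not modelled.

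Troponin T stood apart from the other troponin subunits. *Tnnt2*, the cardiac troponin T (chromosome 1, 135836354 to 135852260, plus strand), was listed at 239 FPKM in *Dnmt1*-WT and 329 FPKM in *Dnmt1*-KO, a ratio of 1.37. Among the 16632 genes above 0 FPKM in *Dnmt1*-WT it lay at the 98.5th percentile. No other troponin gene came near it. *Tnnt1*, the slow skeletal troponin T, was listed at 5.66 and 12.4 FPKM. *Tnnt3*, the fast skeletal troponin T (chromosome 7, 142498836 to 142516009, plus strand), was listed at 2.35 FPKM in *Dnmt1*-WT and 8.57 FPKM in *Dnmt1*-KO, a ratio of 3.65. *Tnnt2* made up 96.8% of troponin T mRNA in *Dnmt1*-WT and 94.0% in *Dnmt1*-KO. No exon of another annotated gene overlaps those of *Tnnt3*.

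The calcium-binding and inhibitory subunits were low, although they work together with troponin T in striated muscle. The genes of troponin C, *Tnnc1* and *Tnnc2*, summed to 1.55 FPKM in *Dnmt1*-WT and 15.7 FPKM in *Dnmt1*-KO, and those of troponin I to 2.78 and 12.2 FPKM. Troponin T mRNA exceeded troponin C mRNA 159-fold in *Dnmt1*-WT and 22.2-fold in *Dnmt1*-KO, and troponin I mRNA 88.9-fold and 28.6-fold. *Tnnc2*, whose value is uncertain because of an overlapping gene, made up 85.6% of the troponin C sum in *Dnmt1*-KO. Against *Tnnc1* alone, a comparison added after seeing the data, troponin T mRNA was in excess by 238-fold and 154-fold. The mRNAs of the 3 subunits were thus far from equal in either library, and how much smaller the gap to troponin C was in *Dnmt1*-KO rests largely on *Tnnc2*. Among the troponin I genes, the fast skeletal *Tnni2* was at 2.58 and 9.50 FPKM, the slow skeletal *Tnni1* at 0.20 and 0.70 FPKM, and the cardiac *Tnni3* was listed at 0 in *Dnmt1*-WT and at 2.01 FPKM in *Dnmt1*-KO. All 8 troponin genes were higher in *Dnmt1*-KO, 6 of the 7 with a ratio by at least 2-fold, with 11.8% of all genes past that fold.

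*Tnnc2*, the fast skeletal troponin C, had the highest ratio of the 10 genes. It was listed at 0.51 FPKM in *Dnmt1*-WT and 13.5 FPKM in *Dnmt1*-KO, a ratio of 26.4, and it passed from below *Tnnc1*, the slow and cardiac troponin C (1.04 and 2.27 FPKM), to 5.93 times its level. The gene (chromosome 2, 164777161 to 164779967, minus strand) lies tail to tail with *Ube2c*, which encodes a ubiquitin-conjugating enzyme of dividing cells and lies on the plus strand. In GENCODE M21 the last exon of the transcript Ube2c-201, at chr2:164777190-164778822, covers 592 of the 700 bases of the coding transcript Tnnc2-201, or 84.6%, and touches 5 of its 6 exons, of which 4 lie wholly inside it. Transcript Ube2c-202 ends earlier and touches none. *Ube2c* was listed at 15.4 FPKM in *Dnmt1*-WT and 39.7 FPKM in *Dnmt1*-KO, a ratio of 2.57. Of the 750 different 50-base stretches of the *Tnnc2* transcripts, 359 also occur in *Ube2c*, or 47.9%. The library kit named in the labels is not stated to keep strand. Without strand, reads over these bases that cross no exon junction cannot be told apart between the 2 genes. The share of the *Tnnc2* value that comes from *Ube2c* was not tested, and the 26.4-fold ratio is uncertain for that reason. The other troponin genes described do not share these bases.

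**Figure D3:**
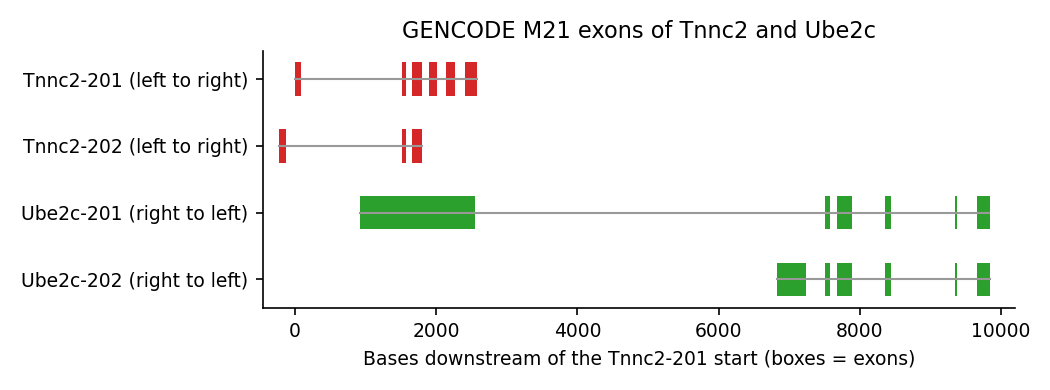
Exons (boxes) of the annotated *Tnnc2* (red) and *Ube2c* (green) transcripts, in bases downstream of the Tnnc2-201 start, with introns as thin lines. The last exon of Ube2c-201, read from the opposite strand, touches 5 of the 6 exons of Tnnc2-201 and holds 4 of them whole, and Ube2c-202 ends before reaching them.

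**Figure D4:**
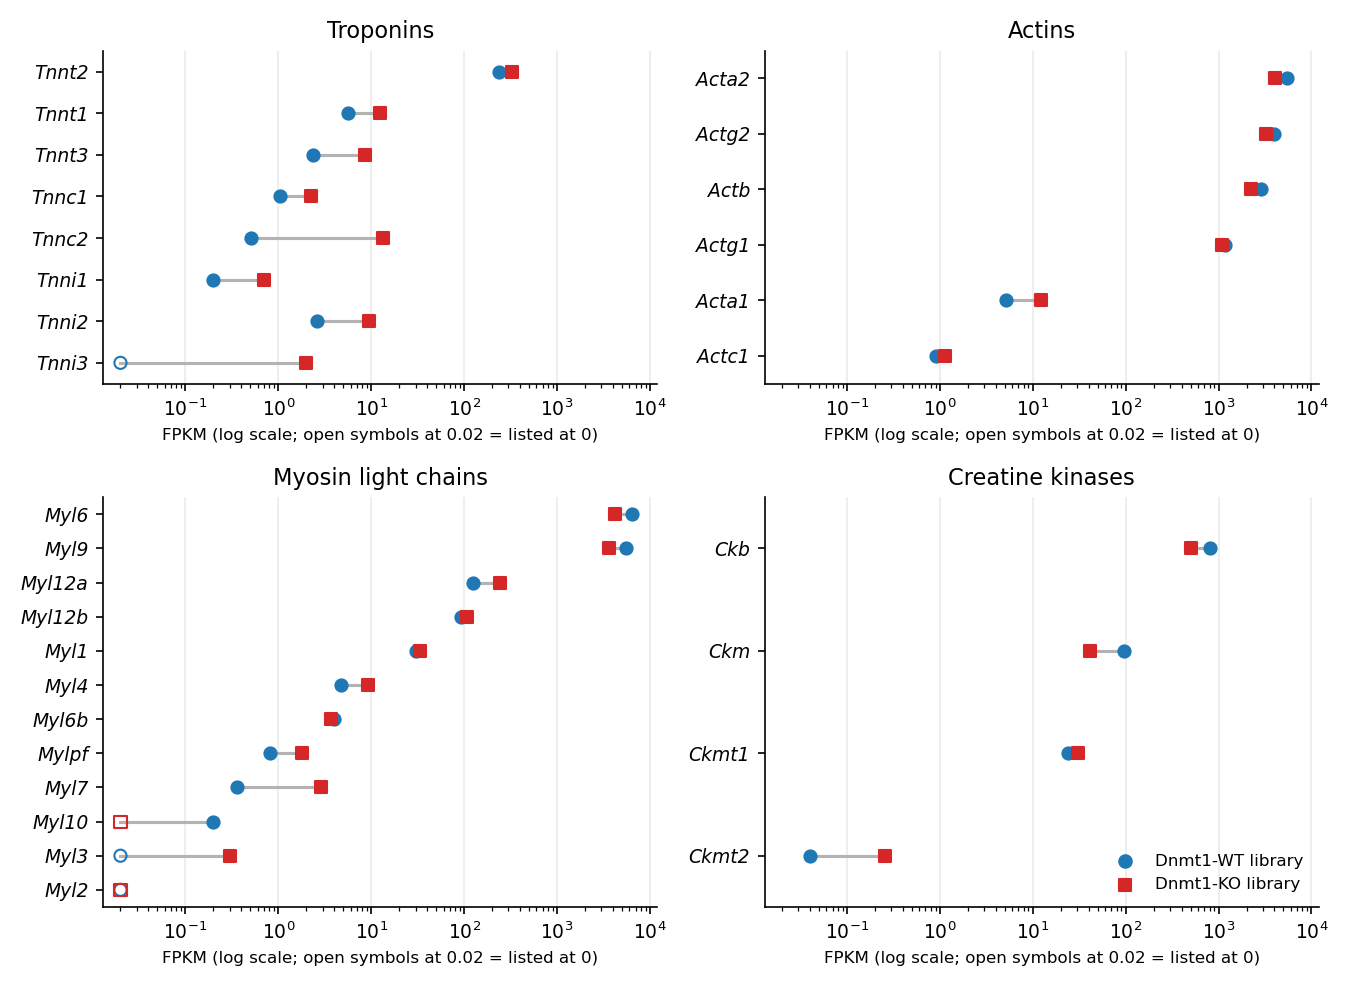
FPKM on a log axis for the troponin, actin, myosin light chain and creatine kinase genes, with circles for *Dnmt1*-WT, squares for *Dnmt1*-KO and open symbols for genes listed at 0. *Tnnt2* lies at 239 and 329 FPKM with every other troponin gene under 14 FPKM, and the striated actins and light chains lie far below *Acta2*, *Actg2*, *Myl6* and *Myl9*.

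The striated myosin light chains kept different levels. *Myl1*, the essential light chain of fast skeletal myosin (chromosome 1, 66924295 to 66945404, minus strand), was listed at 30.7 FPKM in *Dnmt1*-WT and 33.4 FPKM in *Dnmt1*-KO, a ratio of 1.09. *Mylpf*, its regulatory partner in fast fibres (chromosome 7, 127208890 to 127214298, plus strand), was listed at 0.81 and 1.78 FPKM, a ratio of 2.20. Although both proteins sit on the same myosin in fast fibres, the mRNA of the essential chain exceeded that of the regulatory chain in both libraries. Only *Mylpf* at least doubled by the plain ratio. Its level was low, and with a pseudocount of 1 FPKM its ratio was 1.54. The essential light chain of smooth and nonmuscle myosin, *Myl6*, was at 6441 FPKM in *Dnmt1*-WT and 4156 FPKM in *Dnmt1*-KO, and *Myl1* amounted to 0.476% and 0.805% of it. *Myl9*, the regulatory light chain of smooth muscle, was at 5527 and 3647 FPKM, and *Mylpf* amounted to 0.0147% and 0.0488% of it. Of 2067 different 50-base stretches of *Myl1* transcripts, 242 also occur in its processed pseudogene *Mylf-ps*, and of those of *Mylpf* none occurs elsewhere. The cardiac chains were low as well. *Myl7*, of the atria, was at 0.36 and 2.91 FPKM, *Myl4*, of atria and embryonic skeletal muscle, at 4.78 and 9.30 FPKM, and *Myl2*, of the ventricle and slow fibres, was listed at 0 in both.

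The creatine kinases, which shuttle energy between ATP and creatine phosphate, were lower in *Dnmt1*-KO. *Ckm*, the muscle-type enzyme of striated muscle (chromosome 7, 19404776 to 19422841, plus strand), was listed at 96.7 FPKM in *Dnmt1*-WT and 41.4 FPKM in *Dnmt1*-KO, a ratio of 0.428. *Ckb*, the brain type (chromosome 12, 111669361 to 111672338, minus strand), was listed at 818 and 504 FPKM, a ratio of 0.616. Among all genes with a geometric mean between 10 and 100 FPKM, 2.36% had a ratio of 0.5 or less, as *Ckm* did. *Ckm* was the only striated isoform among the 10 that was lower in *Dnmt1*-KO, and its level in *Dnmt1*-WT lay at the 96.0th percentile of genes above 0 FPKM. It amounted to 11.8% of the level of *Ckb* in *Dnmt1*-WT and 8.22% in *Dnmt1*-KO. The mitochondrial forms differed from both, with *Ckmt1* at 23.9 and 31.1 FPKM and *Ckmt2*, the sarcomeric form, at 0.04 and 0.26 FPKM. An antisense gene, *A930016O22Rik*, overlaps 15.5% of the exon bases of *Ckm*, and was at 3.20 FPKM in *Dnmt1*-WT and 1.48 FPKM in *Dnmt1*-KO, far under *Ckm*. *Ckb* shares 312 of 3125 different 50-base stretches with other genes, nearly all with *Gm12892*.

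Myoglobin, the oxygen store of heart and slow or oxidative skeletal fibres, was the lowest of the 10. *Mb* (chromosome 15, 77015487 to 77050670, minus strand) was listed at 0.06 FPKM in *Dnmt1*-WT and 0.32 FPKM in *Dnmt1*-KO, a ratio of 5.33. The lowest value above 0 in either library was 0.03 FPKM, so the *Dnmt1*-WT value lies near the floor of the table. Cytoglobin, *Cygb*, a globin of fibroblast-like cells, was at 31.1 and 72.5 FPKM, or 519 times *Mb* in *Dnmt1*-WT and 226 times in *Dnmt1*-KO, multiples that rest on the very low values of *Mb*. With a pseudocount of 1 FPKM the order of the libraries turned, with *Mb* over *Cygb* at 0.0330 in *Dnmt1*-WT and 0.0180 in *Dnmt1*-KO. The antisense gene *Gm49540*, not analysed here, overlaps 412 of the 1492 exon bases of *Mb*, or 27.6%. *Apol6*, also on the opposite strand, overlaps 64 of these bases and was at 0.35 FPKM in *Dnmt1*-WT and 4.15 FPKM in *Dnmt1*-KO, and its part in the value of *Mb* was not tested.

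The table also gives the number of transcript variants found per gene in each library, without naming them. It was the same in both libraries for 6 of the 10 genes, larger in *Dnmt1*-KO for *Tnnc2* (1 and 2), *Tnnt3* (2 and 4) and *Myl1* (4 and 6), and smaller for *Tnnt2* (6 and 5). Over all genes above 0 FPKM in both libraries, 12.5% had more variants in *Dnmt1*-KO and 13.6% had fewer. Troponin T genes are known for alternative splicing, and *Tnnt2* had the largest number of the 10 in *Dnmt1*-WT. Which exons differ was not analysed here.

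The members were set beside the wider striated muscle programme, through lists chosen with earlier results of these data known. Of the 20 genes of the fast skeletal sarcomere list with a ratio, 8 were at least doubled and 2 at most halved, where 11.8% and 4.98% of all genes were, with a median log2 ratio of 0.59. Without the 5 members in it, 15 genes with a ratio were left, 4 at least doubled and 2 at most halved, with a median of 0.54, against 0.01 over all genes. Its most abundant gene, *Tpm2*, a tropomyosin that smooth muscle shares, was at 2299 FPKM in *Dnmt1*-WT and 1144 FPKM in *Dnmt1*-KO. *Myom1*, which encodes the M-band protein myomesin, was at 61.6 and 62.7 FPKM, and *Ldb3*, a Z-disc protein, at 10.2 and 9.24 FPKM. None of these 3 at least doubled, nor did *Myl1*. Of its 22 listed genes, 10 stayed under 1 FPKM in both libraries, and at a geometric mean under 1 FPKM 32.5% of all genes at least doubled.

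In the slow and cardiac sarcomere list, 5 of 9 genes with a ratio were at least doubled and 1 at most halved, again with 11.8% and 4.98% of all genes past these folds, and with 32.5% at least doubled among genes under 1 FPKM, where 6 of its 15 listed genes stayed in both libraries. A further 5 were listed at 0 in *Dnmt1*-WT and above 0 in *Dnmt1*-KO, as were 953 of all 18159 genes. Its median log2 ratio was 1.13, or 0.46 with a pseudocount of 1 FPKM. *Myh7*, the slow and ventricular myosin heavy chain, was the one at most halved, from 10.2 FPKM in *Dnmt1*-WT to 4.78 FPKM in *Dnmt1*-KO. *Myoz2*, a Z-disc protein of slow and cardiac muscle, was listed at 0 in *Dnmt1*-WT and at 5.52 FPKM in *Dnmt1*-KO. *Actc1* and *Tnnt2*, the members in this list, had lower ratios than that median. In the list of striated muscle metabolism, to which *Ckm* and *Mb* belong, 8 genes were higher and 8 lower, against 50.3% and 49.1% of all genes, 5 were at least doubled and 1 at most halved, against 11.8% and 4.98%, and the median log2 ratio was -0.04. *Pygm*, muscle glycogen phosphorylase (48.4 and 28.0 FPKM), and *Slc2a4*, the insulin-responsive glucose transporter (89.7 and 62.4 FPKM), were lower in *Dnmt1*-KO, as *Ckm* was. *Eno3*, muscle enolase (8.70 and 31.7 FPKM), *Cox6a2* (0.35 and 5.25 FPKM), a striated subunit of cytochrome oxidase, and *Pgam2* (0.38 and 3.68 FPKM), muscle phosphoglycerate mutase, were higher, as *Mb* was.

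The lists of embryonic skeletal genes, excitation-contraction coupling, the creatine system and myogenic regulators did not share the high median of the slow and cardiac one. In the embryonic skeletal list, which holds *Actc1* and *Tnnt2*, 1 of 6 genes with a ratio was at least doubled, while 2 had 0.5 or less of the *Dnmt1*-WT level, against 11.8% and 4.98% of all genes. The latter were the developmental myosin heavy chains *Myh3* (0.37 and 0.05 FPKM) and *Myh8* (0.26 and 0.07 FPKM). The gene past 2-fold upward was *Chrna1* (0.04 and 0.17 FPKM). These genes lay under 1 FPKM in both libraries. Among all genes with a geometric mean under 1 FPKM, the ratio was 0.5 or less for 12.9% and 2 or more for 32.5%. The median log2 ratio of the list was 0.39. Without both members it was -0.47, a value that rests on 4 genes, 3 of them under 1 FPKM in both libraries. In the list of striated excitation-contraction coupling, which holds no member, 1 of 8 was at least doubled and 1 at most halved, with a median of 0.12 and a further 4 genes listed at 0 in *Dnmt1*-WT only. Its most abundant gene, *Jph2*, a junctophilin that ties the sarcoplasmic reticulum to the cell membrane, was at 157 and 84.8 FPKM. In the creatine system list, with *Ckm* and *Ckb*, 1 of 7 was at least doubled and 1 at most halved, and of 6 myogenic regulators with a ratio 1 was at least doubled.

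**Figure D5:**
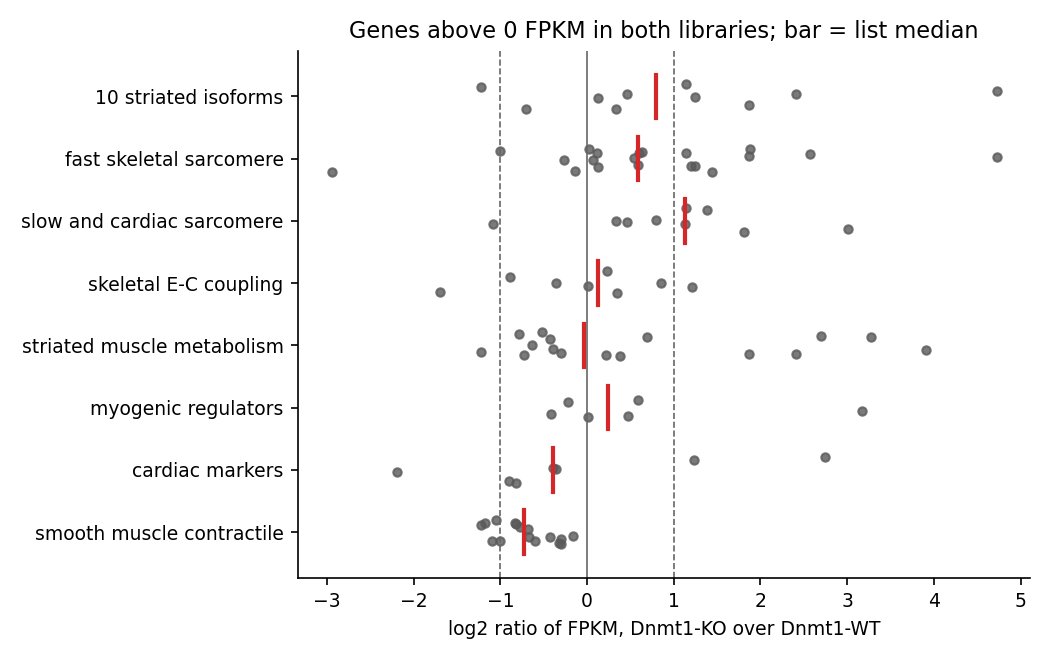
Log2 ratio (*Dnmt1*-KO over *Dnmt1*-WT) for each gene above 0 FPKM in both libraries (points, spread vertically for legibility) in 8 lists, with the median of each list as a red bar and dashed lines at a change of 2-fold. The 10 members spread from -1.22 for *Ckm* to 4.72 for *Tnnc2*, while all 16 smooth muscle contractile genes lie below 0.

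The markers of whole skeletal fibres were examined beside the members. Of 13 such markers 11 were listed, and 8 of these stayed under 1 FPKM in both libraries. *Ryr1*, the calcium release channel, *Cacna1s*, the voltage sensor, *Atp2a1*, the calcium pump of fast fibres, and *Myoz1* were listed at 0 in *Dnmt1*-WT and at 0.16, 0.14, 0.08 and 0.11 FPKM in *Dnmt1*-KO. The heavy chains *Myh1* and *Myh2* of fast fibres were at 0.06 and 0.13 FPKM in *Dnmt1*-WT and 0.05 and 0.77 FPKM in *Dnmt1*-KO. These defining markers were near 0 in both libraries, under *Acta1*, *Tnnt3* and *Myl1*. The sum over the list was 24.5 FPKM in *Dnmt1*-WT and 59.6 FPKM in *Dnmt1*-KO, made up mainly by *Casq1*, a calsequestrin of the sarcoplasmic reticulum (19.8 and 46.0 FPKM), and *Tnni2*. Of the 7 markers with a ratio, 6 were higher in *Dnmt1*-KO and 4 at least doubled, where 50.3% and 11.8% of all genes were, and 32.5% of genes under 1 FPKM at least doubled, among them *Myh2* and *Neb*. The median log2 ratio of these markers was 1.21, or 0.33 with a pseudocount of 1 FPKM. Of the transcription factors that specify skeletal muscle, *Myod1* was listed at 0 in both libraries. *Mef2a*, *Mef2c* and *Mef2d*, which act in smooth and striated muscle, were at 30.7, 8.48 and 33.0 FPKM in *Dnmt1*-WT and at 23.0, 8.56 and 28.3 FPKM in *Dnmt1*-KO. Of the heart muscle markers with a ratio, 2 were higher and 5 lower in *Dnmt1*-KO, against 50.3% and 49.1% of all genes. Their sums of 299.8 FPKM in *Dnmt1*-WT and 198 FPKM in *Dnmt1*-KO came mainly from *Hand2* (145 and 113 FPKM), *Casq2* (77.0 and 58.9 FPKM) and *Pln* (68.1 and 14.9 FPKM). *Nkx2-5* was listed at 0 in both libraries, and *Nppa* was at 1.01 and 0.57 FPKM. The 2 that were higher were *Gata4* (0.32 and 0.75 FPKM) and *Sln* (0.69 and 4.62 FPKM). Both at least doubled, with 11.8% of all genes past that fold. *Nppb* was listed at 0 in *Dnmt1*-WT and at 0.41 FPKM in *Dnmt1*-KO. The part of skeletal or heart muscle cells in the members' values was not tested.

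Markers of other cells of the wall also differed between the libraries. Over all genes, 11.8% were at least doubled in *Dnmt1*-KO and 4.98% at most halved. All 8 leukocyte genes were at least doubled, with sums of 47.7 FPKM in *Dnmt1*-WT and 185 FPKM in *Dnmt1*-KO, and 6 of the 7 adipocyte genes with a ratio were at least doubled, with sums of 126 and 1218 FPKM. Of 8 enterocyte genes 3 were at least doubled and 1 at most halved, with sums of 329.7 and 688 FPKM, while the haemoglobin genes went opposite ways, *Hba-a2* from 42.3 to 225 FPKM and *Hbb-b1* from 46.4 FPKM to a listed 0. Enteric neuron genes were nearly level by their median log2 ratio of 0.08, as were mesothelial genes by theirs of 0.12. Of the 5 mesothelial genes 3 were higher in *Dnmt1*-KO and 2 lower, and *Krt19* went from 96.1 FPKM in *Dnmt1*-WT to 188 FPKM in *Dnmt1*-KO. The part of these cells in the values of *Acta1*, *Tnnc2*, *Tnnt3*, *Mylpf* and *Mb* was not tested.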

How the data were processed

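The authors sequenced TruSeq RNA libraries of jejunal tunica muscularis, 1 per genotype, and deposited FPKM per gene, rounded to 2 decimals, with the number of transcript variants per gene and their own ratio, which was not used. TopHat 1.4.1, Cufflinks 2.0.2 and mm10 are named in the submitters' processing notes, and the annotation is not given in the sources used here. The deposited table holds no reads per gene, so no counting interval is given. The study lists more mapped reads for the *Dnmt1*-WT than for the *Dnmt1*-KO library, and the part of that difference in the lowest values was not tested. Samples were grouped by their genotype label. Because the design has 1 library per group, ratios are plain ratios of FPKM without a test, and calls are counts past 2-fold among genes above 0 FPKM in both libraries.

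The members and lists were chosen with earlier results of these data known. Named genes were the members, their counterparts in other muscle types, *Dnmt1*, and up to 6 of the most abundant genes of each list, with markers listed at 0. The text names *Eno3*, *Cox6a2*, *Pgam2*, *Tnni1*, *Tnni3*, *Ckmt2*, *Myl4*, *Myl7*, *Myl2*, *Nkx2-5*, *Nppa*, *Nppb*, *Gata4*, *Myh1*, *Myh2*, *Myod1*, *Ube2c*, *Apol6* and *A930016O22Rik* after their values were seen. Positions, exon overlaps and 50-base stretches came from GENCODE M21 (GRCm38), which gave a transcript length for 94.7% of symbols. Counting was tested on simulated data. Python 3.11.15, numpy 2.4.6, pandas 2.3.3 and matplotlib 3.10.9 were used.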

Additional observations from a re-analysis of the deposited data

How the results depend on the processing

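The alternatives were 3 scalings between libraries, centring by transcript length in 10 bins, pseudocounts of 0.1 and 1 FPKM, 2 filters on low values and folds of 1.5 and 3. With no replicates, a value was taken as moved when it changed by more than 1.5-fold. Each of the 10 ratios stayed on its side of 1 under all 6 scalings, centrings and pseudocounts. A pseudocount cannot carry a ratio across 1, and a scaling between libraries multiplies all ratios by the same factor. That the sides held was therefore largely fixed by construction and is no check on the differences between the libraries. *Ckm* ranged from 0.399 to 0.447, *Acta1* from 2.14 to 2.47, *Mylpf* from 1.54 to 2.30, *Tnnt2* from 1.28 to 1.44 and *Myl1* from 1.02 to 1.14. A pseudocount of 1 brought *Tnnc2* to 9.58, and *Mb* was 2.63 with a pseudocount of 0.1 and 1.25 with 1. Of the list medians printed, those of the slow and cardiac sarcomere and of the skeletal fibre markers moved with a pseudocount of 1, from 1.13 to 0.46 and from 1.21 to 0.33. The levels of *Actc1*, *Mb* and *Mylpf* relative to their counterparts also moved with it, as did *Tnnc2* over *Tnnc1* in *Dnmt1*-WT, from 0.490 to 0.740, and *Mb* over *Cygb* in *Dnmt1*-WT moved with 0.1 too. Members at least doubled, 5 by the plain ratio, numbered 3 with a pseudocount of 1, 2 when each library had to reach 1 FPKM and 3 at a fold of 3. They also numbered 3 when *Tnnc2* and *Mb*, with 25% or more of their exon bases inside exons of other genes, were left out, an alternative chosen after seeing the data. Members at most halved, 1 by the plain ratio, numbered 2 at a fold of 1.5 and 0 at a fold of 3. Of all genes, 11.8% at least doubled, and this became 4.87% with a pseudocount of 1, 5.53% when each library had to reach 1 FPKM, 19.7% at a fold of 1.5 and 6.46% at 3. The 4.98% at most halved became 1.73%, 2.82%, 12.7% and 1.76% in the same order. These shifts follow from the construction of each setting, since pseudocounts and filters act on weakly expressed genes. No paired analysis was possible because each group has 1 library, and for the same reason no library could be left out.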

Other observations

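Calcium handling genes among the heart markers lay on both sides of 1 in the ratio. *Pln*, phospholamban, which restrains the calcium pump, was at 68.1 FPKM in *Dnmt1*-WT and 14.9 FPKM in *Dnmt1*-KO, *Casq2*, cardiac calsequestrin, at 77.0 and 58.9 FPKM, and *Ryr2*, the cardiac calcium release channel, at 7.5 and 4.01 FPKM. *Sln*, sarcolipin, another inhibitor of the pump, was at 0.69 and 4.62 FPKM, opposite in direction to *Pln*. Of these 4 genes, chosen after their values were seen, only *Pln* was at most halved and only *Sln* at least doubled. Neuroglobin, *Ngb*, was at 26.7 FPKM in *Dnmt1*-WT and 9.42 FPKM in *Dnmt1*-KO, lower where *Mb* and *Cygb* were higher. With 1 library per genotype, none of these differences has a replicate check.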
